A study of Mus musculus with 10 samples.

Results

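Ubiquitin-conjugating enzymes (E2 enzymes) form the middle step of the cascade that attaches ubiquitin to proteins. An E1 enzyme activates ubiquitin and passes it to a cysteine of an E2, and the E2, together with an E3 ligase that picks the substrate, hands it on. Different E2s build different chains: chains through lysine 48 mostly mark proteins for the proteasome, chains through lysine 63 serve in signalling, membrane traffic and DNA repair, and related E2s carry the modifiers SUMO, NEDD8, ISG15 or FAT10. In neurons the pathway takes part in the turnover of synaptic proteins.

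The genes described here were chosen by symbol: all protein-coding mouse genes named Ube2 followed by a letter. They number 37 of the 48709 genes in the count tables, and 6 further genes of the same naming pattern that are not protein-coding stay out. No threshold on a measured value entered the choice of single genes, but the family was taken up with its changes against control already known. Its comparisons with control are therefore a description, and nothing is read from how its counts of calls exceed those of all genes. Ube2cbp meets the symbol rule although it encodes a protein that binds an E2 and has the synonym Ube3d.

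Polyadenylated RNA came from mouse hippocampal neurons in primary culture, between day 10 and day 12 in vitro. All cultures were exposed for 48 h to lipid nanoparticles, which carried anti-miR-409-5p (n = 4 libraries), anti-miR-501-3p (n = 4) or, in control, scramble RNA (n = 2). An anti-miR is an antisense oligonucleotide meant to block a microRNA, so the comparisons ask which transcripts change when miR-409-5p or miR-501-3p is inhibited. The labels give no mouse strain, sex or age, name no untreated control without nanoparticles, and leave unsaid whether replicates are separate cultures, so that the p-values cover the spread among replicate libraries, which may be technical.

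Library totals lay between 22254788 and 32096808 counts. The genes of both microRNAs had 0 counts in every library, so the tables hold no check of the inhibition. The summed level of 8 neuron markers was 8280 to 8690 CPM under anti-miR-409-5p, 8200 to 8740 CPM under anti-miR-501-3p and 7910 to 8110 CPM in control. CPM is the count of a gene scaled to its library's total after TMM adjustment of that total. Single neuron markers went both ways, since anti-miR-409-5p had 3 called above control and 4 below it, and anti-miR-501-3p had 3 in each direction. The sum of 3 excitatory neuron markers was 3050 to 3180 CPM, 3000 to 3150 CPM and 3310 to 3390 CPM in the same order of groups, that of 3 inhibitory neuron markers 431 to 439 CPM, 415 to 437 CPM and 398 to 400.0 CPM, and that of 6 astrocyte markers 1800 to 1850 CPM, 1750 to 1790 CPM and 1740 to 1770 CPM. The 5 microglia markers summed to between 13.4 and 17.9 CPM in all libraries, and no gene of the marker lists was at 0 in all libraries. The part of these marker shifts in the values below was not tested, and in such bulk RNA fewer cells of a type and less RNA per cell cannot be told apart.

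The libraries also differed by base composition. Over the tested genes with a mean log2 CPM above 1, the level of a gene relative to its mean moved with the GC content of its transcript by 0.038 to -0.11 log2 units for each 10 points of GC in the 4 anti-miR-409-5p libraries and by 0.0078 to -0.13 in the 4 anti-miR-501-3p libraries, against 0.27 and 0.20 in the control libraries. No anti-miR library overlapped control in this slope, so slope and treatment cannot be told apart, and the members' calls against control are therefore set beside the same fit after removal of a library-specific trend on GC content and transcript length.

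The microRNA sequences are shown first because the seed, bases 2 to 8 and here in capitals, is the stretch through which a microRNA mainly pairs with its targets. RefSeq (GRCm38.p6) places mature miR-409-5p at chr12:109743172-109743194 on the plus strand and miR-501-3p at chrX:7241270-7241291 on the minus strand. The seeds differ.
miR-409-5p: aGGUUACCcgagcaacuuugcau
miR-501-3p: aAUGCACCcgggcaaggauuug

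Letters that match a seed were looked for in the longest 3′ UTR annotated for a gene, on the transcript's own strand, as GGTAACC or GTAACCA for miR-409-5p and as GGTGCAT or GTGCATA for miR-501-3p. A match for miR-409-5p was present in 1 of 37 members (2.7%), against 8.63% of 20848 genes with an annotated 3′ UTR. A match for miR-501-3p was present in 6 of 37 members (16.2%), against 11.2% of those genes. These 7 sites, all in the 3′ UTR of the gene and given in mm10 coordinates with the matching letters in capitals, are printed because the values of their genes are set beside them below; in Ube2h and Ube2l3 the match extends to the adenosine after the seed.
miR-409-5p match in Ube2j2, chr4:155958011-155958039, plus strand: gtaggagccttGGTAACCctggttcctta
miR-501-3p match in Ube2d3, chr3:135466383-135466411, plus strand: tttattttccaGGTGCATccccttctaac
miR-501-3p match in Ube2e2, chr14:18573803-18573831, minus strand: gtctattggtgGGTGCATgctactgggaa
miR-501-3p match in Ube2e3, chr2:78921006-78921034, plus strand: tgaatttttatGGTGCATtattgctactg
miR-501-3p match in Ube2h, chr6:30214753-30214782, minus strand: tctcaacctgaGGTGCATAgcatattccca
miR-501-3p match in Ube2l3, chr16:17158358-17158387, minus strand: tggtagaggtgGGTGCATActtaggcagag
miR-501-3p match in Ube2v2, chr16:15554425-15554453, minus strand: tgtgtgtgttgGGTGCATgcagaggcctt

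The Ube2 genes spanned a wide range of levels in these neurons. Per length of the annotated exons, in TPM, a share of all transcripts after division by length, the highest in every group was Ube2ql1, a little studied relative of the Ube2q enzymes, with 362 ± 12.6 TPM under anti-miR-409-5p, 364 ± 12.4 TPM under anti-miR-501-3p and 400.0 ± 6.16 TPM in control (SD). Ube2b, a RAD6-type enzyme, followed with 311 ± 22.8, 330.0 ± 15.1 and 258 ± 8.88 TPM in the same groups. In control, Ube2m (195 ± 1.54 TPM), the enzyme of the NEDD8 pathway that serves most cullin ligases, and Ube2o (193 ± 6.48 TPM), a large enzyme that works as E2 and E3 at once, came next, and their libraries overlapped. The lowest of the 33 genes that passed the filter on low counts was Ube2v1 at 0.78 ± 0.146, 0.789 ± 0.134 and 0.849 ± 0.157 TPM. Of the 32 pairs of neighbours in the order of control levels, 9 had overlapping control libraries and 23 did not.

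The filter left out 4 members, all with few or no counts. Ube2dnl1 and Ube2dnl2, X-linked genes similar to Ube2d, had 0 counts in all 10 libraries, Ube2d2b had 8 counts in all and Ube2u had 23. A count of 0 allows up to 3 counts, which is 0.0935 to 0.135 CPM in these libraries, for counting error only.

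The order of levels depends on the gene length used. The union of annotated exons is 24499 bases for Ube2d3 and 11565 bases for Ube2d2a, against 3833 and 2480 bases for their longest coding transcripts. With the longest coding transcript as length, an alternative chosen after seeing the data, Ube2d3 stood at 129, 138 and 71.7 TPM under anti-miR-409-5p, under anti-miR-501-3p and in control, against 27.3, 29.2 and 15.3 TPM by exon union, and its place in the control order was 16 in place of 25. The 4 highest members in control were the same genes under both lengths, with Ube2m and Ube2b in exchanged places.

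**Figure D1:**
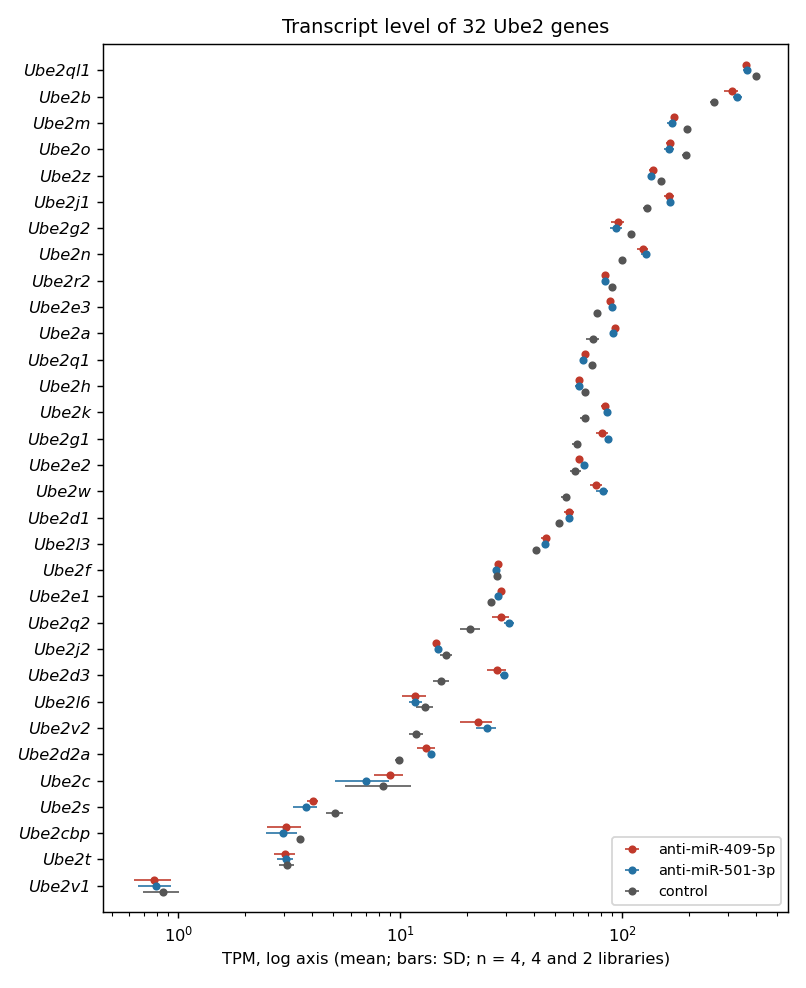
Mean level of each of 32 of the 33 tested Ube2 genes in TPM by exon union length, on a log axis, ordered by the control level, with bars for the SD over 4 anti-miR-409-5p, 4 anti-miR-501-3p and 2 control libraries. Ube2ql1 is highest (400.0 TPM in control) and Ube2v1 lowest (0.849 TPM), and the members with the largest gap between the anti-miR points and the control point, such as Ube2d3 and Ube2v2, lie in the lower part of the order.

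Against control, the Ube2 genes that changed mostly rose. Under anti-miR-409-5p 15 of 33 tested members were higher and 2 lower (edgeR, adjusted p under 0.05 over all 16884 tested genes), where 15.6% of all tested genes were higher and 12.2% lower. For anti-miR-501-3p, 16 rose and 4 fell, where 17.6% of all tested genes were higher and 15.4% lower. The same 15 members were higher and the same 2 lower in both comparisons, which share the control libraries, and 13 members were called in neither. Folds among the risers ran between 1.14 and 1.96 under anti-miR-409-5p and between 1.13 and 2.17 under anti-miR-501-3p. Every library of the anti-miR lay outside the range of both control libraries for all 17 and all 20 called members. The call itself favours genes with such separation, and its share over all called genes was not taken, so nothing is read from it.

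The median log2 fold change over the 33 tested members was 0.099 under anti-miR-409-5p and 0.042 under anti-miR-501-3p, beside -0.012 for all tested genes in both comparisons. Scaling by total counts gave member medians of 0.055 and -0.0076, so that the sign of the second depends on the scaling, and 15 members higher with 6 and 7 lower. With that scaling 2193 and 2452 of all 16884 tested genes were higher and 3209 and 3779 lower, at medians of -0.056 and -0.061. Without control replicate 1, the other control library stands alone and is assumed to vary like the other groups. The member medians were then 0.14 under anti-miR-409-5p and 0.16 under anti-miR-501-3p, beside 0.0078 and 0.0012 for all tested genes. Fewer members were called in that fit, as were fewer of all tested genes. Once the GC and length trend had been removed, 11 members were higher with 0 lower for anti-miR-409-5p, where 3.14% of all tested genes were higher and 2.13% lower. For anti-miR-501-3p 12 were higher with 0 lower, where 4.58% were higher and 3.33% lower. In these fits 15 and 14 members had an unadjusted p under 0.05 by edgeR, beside 2891 and 3388 of all 16839 tested genes.

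The summed CPM of all 37 members was 2502 ± 59.8 (SD, n = 4) under anti-miR-409-5p, 2554 ± 24.5 (n = 4) under anti-miR-501-3p and 2238 ± 38.9 (n = 2) in control. The lowest anti-miR library, at 2428 CPM, lay above the highest control library, at 2266 CPM. In TPM the groups were closer together, with sums of 2544 ± 33.2, 2580 ± 15.6 and 2437 ± 29.7 TPM in the same order (SD). TPM differs from CPM both by the division by exon length and by the absence of the TMM adjustment, and their parts in this were not separated. Both sums are as counted, without the GC and length correction. The CPM sum is not per length and weights members by their counts, of which Ube2ql1, Ube2o, Ube2b, Ube2k and Ube2d3 had the most.

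**Figure D2:**
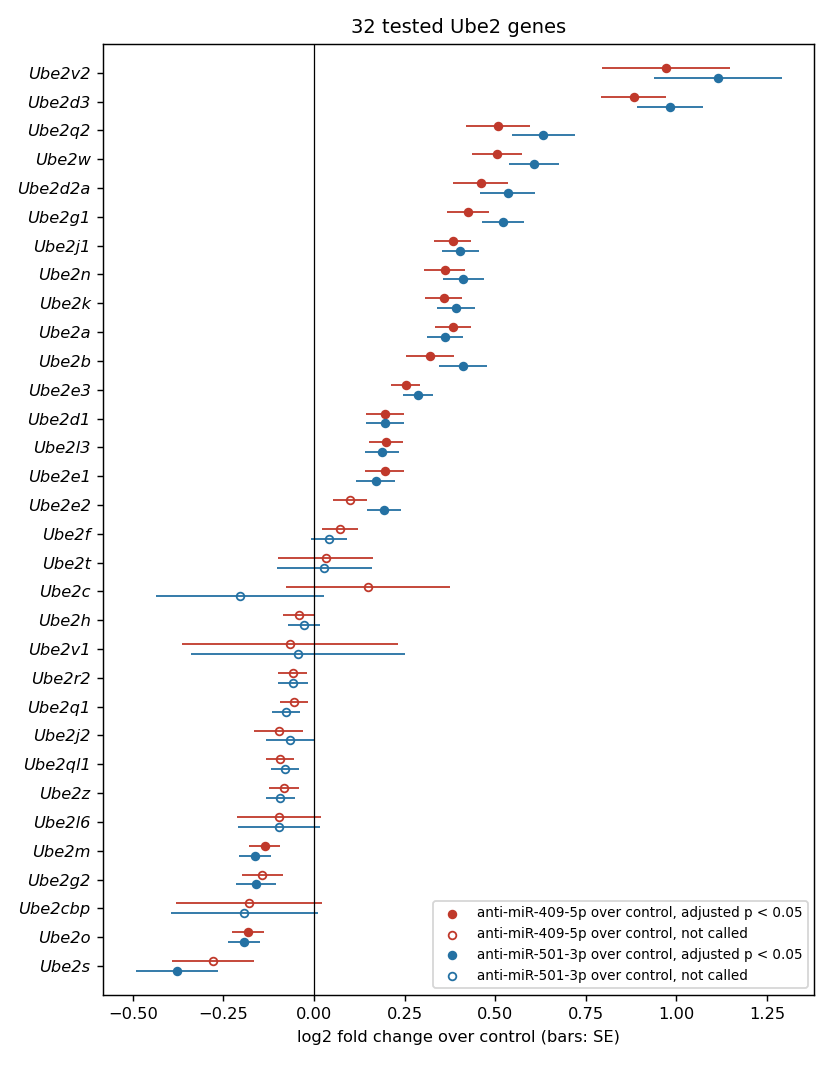
Log2 fold change over control of each of 32 of the 33 tested Ube2 genes under anti-miR-409-5p (red, upper point of each row) and anti-miR-501-3p (blue, lower point), with bars for the SE and filled points for an edgeR adjusted p under 0.05. Ube2v2 and Ube2d3 stand apart at the top with 0.88 to 1.11, and all called falls lie between -0.14 and -0.38.

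The broadly acting ubiquitin E2s, which work with many E3 ligases, had 8 tested genes, of which 7 were higher under anti-miR-409-5p (of 15 risers) and 8 under anti-miR-501-3p (of 16 risers), with median log2 fold changes of 0.23 and 0.24. Ube2d3 (chr3:135438149-135468198), of the Ube2d enzymes that serve a large number of RING ligases, had 138, 159, 176 and 171 CPM under anti-miR-409-5p, 163, 182, 174 and 171 CPM under anti-miR-501-3p, and 82.1 and 92.4 CPM in control. All 8 anti-miR libraries lay well above both controls, at log2 fold changes of 0.88 ± 0.091 under anti-miR-409-5p and 0.98 ± 0.091 under anti-miR-501-3p (± SE), with adjusted p = 9.85e-05 and 3.09e-05. Its paralog Ube2d2a had 31.2, 36.4, 39.4 and 39.02 CPM under anti-miR-409-5p, 37.2, 39.6, 38.9 and 38.04 CPM under anti-miR-501-3p, and 25.6 and 27.5 CPM in control, and its log2 fold changes were 0.46 ± 0.077 under anti-miR-409-5p and 0.54 ± 0.076 under anti-miR-501-3p (adjusted p = 0.00051 and 9.45e-05). Ube2d1, the third paralog, had 56.99, 59.95, 65.2 and 60.3 CPM under anti-miR-409-5p, 58.4, 60.04, 60.5 and 63.1 CPM under anti-miR-501-3p, and 52.3 and 53.4 CPM in control. It rose least of the 3, by 0.20 on the log2 scale in both comparisons (adjusted p = 0.00957 and 0.00754), and was not called without control replicate 1 (0.20 with adjusted p = 0.0948 and 0.19 with adjusted p = 0.0814). After the GC and length correction, log2 fold changes were 0.50 and 0.55 for Ube2d3 and 0.35 and 0.42 for Ube2d2a, all past the threshold. Ube2d1 kept its call under anti-miR-409-5p (0.15) and missed it under anti-miR-501-3p (0.13, adjusted p = 0.0642). Of the sequence windows of Ube2d3 that are as long as a read, 16.5% also occur in other genes, Spopl among them. For Ube2d2a this share was 16.2%, with Gm9762 among the other genes. Whether reads from such genes entered the counts of Ube2d3 and Ube2d2a was not tested.

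Ube2w, which attaches ubiquitin to the amino end of proteins, had 82.9, 88.01, 97.8 and 92.7 CPM under anti-miR-409-5p, 89.1, 98.4, 95.1 and 105 CPM under anti-miR-501-3p, and 61.3 and 66.01 CPM in control. No anti-miR library overlapped control, and the log2 fold changes were 0.50 ± 0.069 under anti-miR-409-5p and 0.61 ± 0.069 under anti-miR-501-3p (adjusted p = 0.000163 and 2.52e-05). Ube2e3 belongs to the Ube2e enzymes, which carry a long amino-terminal extension. It had 89.99, 95.8, 94.9 and 92.9 CPM under anti-miR-409-5p, 95.6, 96.8, 95.8 and 94.3 CPM under anti-miR-501-3p, and 78.1 and 78.6 CPM in control, with little spread inside each group and log2 fold changes of 0.25 ± 0.041 under anti-miR-409-5p and 0.29 ± 0.041 under anti-miR-501-3p (adjusted p = 0.000317 and 6.99e-05). Ube2e2 of the same family had 68.3, 72.2, 71.9 and 70.6 CPM under anti-miR-409-5p, 76.4, 73.2, 77.7 and 74.8 CPM under anti-miR-501-3p, and 63.2 and 68.9 CPM in control. It was called under anti-miR-501-3p (log2 fold change 0.19 ± 0.047, adjusted p = 0.00421) but not under anti-miR-409-5p (0.099 ± 0.047, adjusted p = 0.123), where its lowest library lay inside the control range. Without control replicate 1 the first of these was 0.14 with adjusted p = 0.115, and without control replicate 2 the second was 0.17 with adjusted p = 0.0497. After the GC and length correction Ube2e2 was higher in both, at 0.17 and 0.26.

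Ube2l3, the partner of HECT and RBR ligases such as parkin, had 66.3, 59.9, 64.5 and 64.03 CPM under anti-miR-409-5p, 61.8, 63.4, 64.8 and 62.95 CPM under anti-miR-501-3p, and 54.6 and 56.4 CPM in control. The groups did not overlap and the log2 fold changes were 0.20 ± 0.047 under anti-miR-409-5p and 0.19 ± 0.047 under anti-miR-501-3p (adjusted p = 0.00504 and 0.00523), but neither call held without control replicate 1 (adjusted p = 0.0719 and 0.0738) or after the GC and length correction (0.07 and 0.04). Its exons overlap those of other genes such as Ydjc over 28.6% of their length, and 58.9% of its 50-base windows occur in other genes, so its counts are uncertain in a protocol that does not mark strand. The same holds for Ube2e1, with 59.0% of its windows shared with Nkiras1 and pseudogenes, which was 0.20 ± 0.054 and 0.17 ± 0.054 above control (adjusted p = 0.0122 and 0.0209). Ube2e1 lost both calls when either control library was left out (adjusted p = 0.0568 to 0.133) and after the GC and length correction, and that under anti-miR-501-3p also with total counts as scaling (adjusted p = 0.0886).

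As counted, the lysine 63 group held the largest rise of the family. Ube2v2 (MMS2; chr16:15552077-15595773) is a variant without the catalytic cysteine that pairs with Ube2n to build lysine 63 chains. It had 30.1, 35.96, 42.8 and 44.3 CPM under anti-miR-409-5p, 35.1, 44.8, 44.9 and 44.3 CPM under anti-miR-501-3p, and 18.4 and 20.6 CPM in control. All anti-miR libraries exceeded both controls, but replicate 1 of each anti-miR lay below the other 3. The log2 fold changes were 0.97 ± 0.18 under anti-miR-409-5p and 1.11 ± 0.18 under anti-miR-501-3p (adjusted p = 0.00484 and 0.00183), with the largest errors among the risers, and without control replicate 1 the call under anti-miR-409-5p was lost (0.91, adjusted p = 0.0683), as it was with 1 surrogate variable in the fit (0.71, adjusted p = 0.0672). Ube2v2 has the lowest GC content of the tested members, 35.1%, and after the correction its log2 fold changes were 0.24 and 0.26, still past the threshold and below those of Ube2d3, Ube2q2 and Ube2d2a. Its catalytic partner Ube2n had 117, 124, 136 and 128 CPM under anti-miR-409-5p, 124, 137, 136 and 125 CPM under anti-miR-501-3p, and 96.4 and 99.98 CPM in control. That is a log2 fold change of 0.36 ± 0.057 under anti-miR-409-5p and 0.41 ± 0.057 under anti-miR-501-3p (adjusted p = 0.000277 and 5.73e-05), and after the correction it was 0.04 and 0.04, not past the threshold. Ube2v1, the other variant, was barely detected with 10 to 18 counts in each library, and 91.2% of its 50-base windows occur in other genes, Gm20431 among them, so no direction is given.

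Among the 7 enzymes of lysine 48 chains and protein degradation, 3 rose in both comparisons. Ube2g1 had 80.6, 88.6, 95.5 and 92.5 CPM under anti-miR-409-5p, 92.3, 95.97, 99.2 and 94.3 CPM under anti-miR-501-3p, and 64.2 and 68.8 CPM in control. Its log2 fold changes were 0.42 ± 0.058 under anti-miR-409-5p and 0.52 ± 0.058 under anti-miR-501-3p (adjusted p = 9.5e-05 and 1.05e-05), and after the correction 0.12 (adjusted p = 0.0896) and 0.17 (adjusted p = 0.00629). Ube2j1, a membrane-anchored E2 of the endoplasmic reticulum that serves the degradation of misfolded proteins there, had 132, 132, 149 and 139.9 CPM under anti-miR-409-5p, 134, 142, 145 and 140.0 CPM under anti-miR-501-3p, and 103 and 109 CPM in control. The groups did not overlap; the log2 fold changes were 0.38 ± 0.051 under anti-miR-409-5p and 0.40 ± 0.051 under anti-miR-501-3p (adjusted p = 7.6e-05 and 2.78e-05), and 0.25 and 0.25 after the correction, past the threshold in both comparisons.

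Ube2k (E2-25K), which makes lysine 48 chains without an E3 in vitro, had 148, 159.8, 165 and 165 CPM under anti-miR-409-5p, 154, 168, 164 and 167 CPM under anti-miR-501-3p, and 119.7 and 129 CPM in control. Its rise of 0.36 ± 0.051 under anti-miR-409-5p and 0.39 ± 0.051 under anti-miR-501-3p as counted (adjusted p = 0.000123 and 3.43e-05) was 0.021 and 0.015 after the correction (adjusted p = 0.813 and 0.854). Ube2g2, which acts in the degradation of endoplasmic reticulum proteins, averaged 55.8 ± 3.02 CPM under anti-miR-409-5p, 55.1 ± 3.04 CPM under anti-miR-501-3p and 61.5 ± 0.578 CPM in control (SD, n = 4, 4 and 2). It was called lower under anti-miR-501-3p alone (log2 fold change -0.16 ± 0.056, adjusted p = 0.0344; under anti-miR-409-5p -0.14 ± 0.056, adjusted p = 0.0645), and leaving out either control library, replicate 2 of anti-miR-409-5p, or any of replicates 2, 3 and 4 of anti-miR-501-3p, ended that call (adjusted p = 0.0532 to 0.182). Ube2h, Ube2j2 and Ube2r2 were called in neither comparison, with log2 fold changes between -0.097 and -0.027. The counts of Ube2h are uncertain, since 46.3% of its 50-base windows occur in other genes, Gm26526 among them.

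The RAD6 pair rose. Ube2a, which with RAD18 marks PCNA and with RNF20 and RNF40 marks histone H2B, had 50.1, 49.1, 52.2 and 51.4 CPM under anti-miR-409-5p, 50.1, 49.3, 50.8 and 49.4 CPM under anti-miR-501-3p, and 36.8 and 40.9 CPM in control. Ube2b, its paralog, had 145, 152, 172 and 167 CPM under anti-miR-409-5p, 156, 169.9, 176 and 176 CPM under anti-miR-501-3p, and 124 and 131 CPM in control. Both stood above control in every anti-miR library, with log2 fold changes of 0.38 ± 0.05 under anti-miR-409-5p and 0.36 ± 0.05 under anti-miR-501-3p for Ube2a (adjusted p = 6.5e-05 and 5.69e-05) and 0.32 ± 0.066 under anti-miR-409-5p and 0.41 ± 0.066 under anti-miR-501-3p for Ube2b (adjusted p = 0.00294 and 0.000389). Each kept 1 of its 2 calls after the correction, Ube2a under anti-miR-409-5p (0.18 ± 0.045) and Ube2b under anti-miR-501-3p (0.17 ± 0.04). Without control replicate 1, Ube2b missed the threshold under anti-miR-409-5p (0.29, adjusted p = 0.056).

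The other 3 enzymes of the cell cycle and DNA repair group were low. Ube2s, which extends lysine 11 chains for the anaphase-promoting complex, had 4.93, 4.83, 4.76 and 5.42 CPM under anti-miR-409-5p, 5.32, 4.18, 4.28 and 4.88 CPM under anti-miR-501-3p, and 6.44 and 5.71 CPM in control. It was called lower under anti-miR-501-3p (log2 fold change -0.38 ± 0.11, adjusted p = 0.0161), and not under anti-miR-409-5p (-0.28 ± 0.11, adjusted p = 0.0739); without control replicate 1 it was -0.28 with adjusted p = 0.24, without anti-miR-501-3p replicate 2 it was -0.32 with adjusted p = 0.0562, and after the correction -0.14 with adjusted p = 0.55. Ube2c, the initiating E2 of the same complex, averaged 5.59 ± 0.787, 4.37 ± 1.14 and 5.07 ± 1.64 CPM under anti-miR-409-5p, anti-miR-501-3p and in control, and Ube2t, the E2 of the Fanconi anaemia pathway, was likewise not called. The 4 markers of proliferating cells summed to 87.3 to 114 CPM, 59.7 to 97.9 CPM and 70.7 to 107 CPM in these groups, which overlap.

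Of the 5 enzymes of ubiquitin-like modifiers, 1 was called lower in each comparison and the other 4 were not called; no riser appeared at an unadjusted p under 0.05 either, by edgeR or by DESeq2. The faller was Ube2m, with 99.2, 98.8, 94.8 and 94.7 CPM under anti-miR-409-5p, 100.3, 96, 91.5 and 92.9 CPM under anti-miR-501-3p, and 107 and 106 CPM in control. The log2 fold changes were -0.14 ± 0.044 under anti-miR-409-5p and -0.16 ± 0.044 under anti-miR-501-3p (adjusted p = 0.0276 and 0.00857). Under either scaling of total counts or upper quartile Ube2m stayed below control, but after the GC and length correction it was above control, at 0.15 and 0.15 (adjusted p = 0.016 and 0.00912); its GC content of 63.4% is the highest of the tested members. Neither call held when either control library was left out (adjusted p = 0.0522 to 0.221), and that under anti-miR-409-5p was also lost without replicate 3 or 4 of anti-miR-409-5p and without replicate 2 of anti-miR-501-3p (adjusted p = 0.052 to 0.0832). The other NEDD8 enzyme Ube2f, the ISG15 enzyme Ube2l6 and the FAT10 enzyme Ube2z had log2 fold changes between -0.096 and 0.071 and were not called; with total counts alone as scaling Ube2z was called lower in both (-0.13 and -0.14).

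The remaining, more divergent members went different ways. Ube2q2 had 25.6, 30.6, 31.9 and 29.8 CPM under anti-miR-409-5p, 29.2, 33.2, 32.3 and 33.6 CPM under anti-miR-501-3p, and 19.1 and 22.3 CPM in control. It rose by 0.51 ± 0.087 under anti-miR-409-5p and 0.63 ± 0.087 under anti-miR-501-3p (adjusted p = 0.000694 and 7.98e-05) and by 0.46 and 0.58 after the correction, past the threshold in both comparisons, although 20.9% of its 50-base windows occur also in Gm4895. Ube2o had 219, 209.6, 204 and 205 CPM under anti-miR-409-5p, 220.0, 202, 209 and 200.1 CPM under anti-miR-501-3p, and 242 and 232 CPM in control. It was lower by both comparisons, at -0.18 ± 0.044 under anti-miR-409-5p and -0.19 ± 0.044 under anti-miR-501-3p (adjusted p = 0.00571 and 0.00291), but not without control replicate 1 (adjusted p = 0.155 and 0.103) nor after the correction (-0.04 and -0.03). Ube2ql1 had 240.4, 235, 228 and 228 CPM under anti-miR-409-5p, 242, 235, 227 and 236 CPM under anti-miR-501-3p, and 245 and 252 CPM in control. The log2 fold changes of -0.094 and -0.08 did not pass; with total counts as scaling it was called lower in both (-0.14 and -0.13), and after the correction it was called higher under anti-miR-501-3p (0.14, adjusted p = 0.0123). Ube2q1 and Ube2cbp were called in neither comparison.

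**Figure D3:**
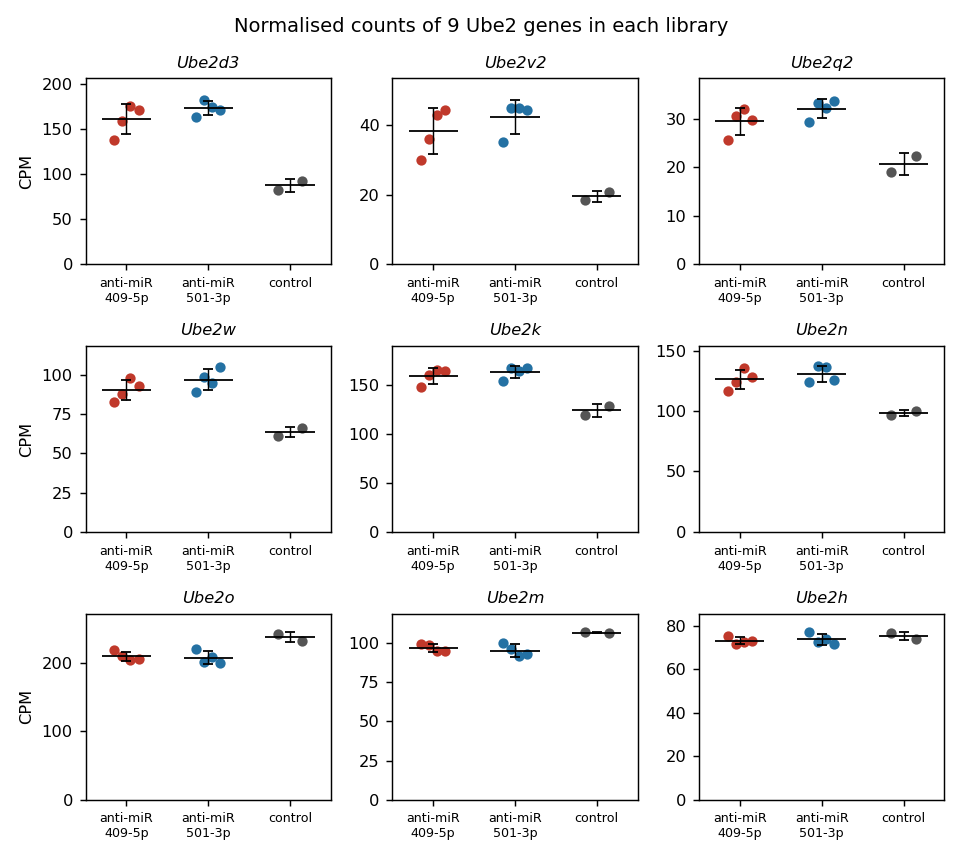
CPM of 9 Ube2 genes in each library, with a line for the group mean and bars for the SD, on axes that start at 0. Ube2d3, Ube2v2, Ube2q2, Ube2w, Ube2k and Ube2n lie higher in all anti-miR libraries than in both controls, Ube2o and Ube2m lie lower, and Ube2h overlaps (mean 73.2, 73.9 and 75.3 CPM under anti-miR-409-5p, anti-miR-501-3p and in control).

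GC content ordered the fold changes of the family as counted. Across the 33 tested members, Spearman's correlation between the log2 fold change and the GC content of the transcript was -0.85 under anti-miR-409-5p and -0.87 under anti-miR-501-3p, against -0.71 and -0.71 over 16839 genes; the members share libraries and are not independent, so no p is given. Under anti-miR-409-5p the risers had a median GC content of 42.2% (35.1% to 47.9%), the fallers 60.8% and the members that were not called 51.3%. Under anti-miR-501-3p these medians were 43.4%, 58.3% and 50.8%. The correlation with the length of the 3′ UTR was 0.41 and 0.40, and that with the GC content of the 3′ UTR was -0.78 and -0.80. After the correction, which fits the trend over tested genes with a mean log2 CPM above 1, the correlation with GC content within the family was -0.42 and -0.50.

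Of the 15 risers under anti-miR-409-5p, 9 still passed after the correction, and of the 16 under anti-miR-501-3p, 10 did. Ube2d3, Ube2q2, Ube2d2a, Ube2j1, Ube2v2, Ube2w and Ube2e3 passed in both comparisons. Ube2n, Ube2k, Ube2l3 and Ube2e1 passed in neither. The largest corrected values were those of Ube2q2 and Ube2d3, between 0.46 and 0.58, and edgeR called no member lower. The correction took GC content and length from the longest coding transcript, 3833 bases for Ube2d3 and 2480 bases for Ube2d2a. Their annotated exons cover 24499 and 11565 bases, so these values describe only part of the sequence that may have been counted. The effect of this on their corrected fold changes was not tested.

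**Figure D4:**
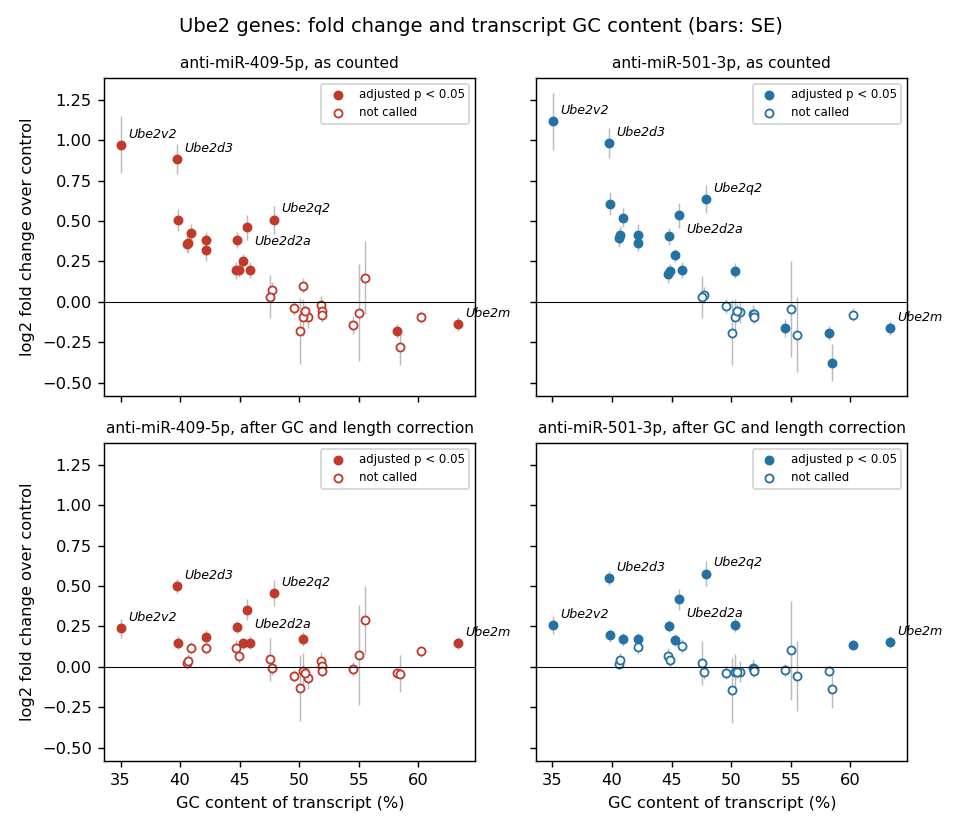
Log2 fold change over control of the 33 tested Ube2 genes against the GC content of the longest coding transcript in percent, under anti-miR-409-5p (left) and anti-miR-501-3p (right), as counted (top) and after removal of each library's trend on GC content and length (bottom), with bars for the SE and filled points for an edgeR adjusted p under 0.05. As counted, the points fall with GC content from Ube2v2 at 35.1% to Ube2m at 63.4%. After the correction Ube2d3, Ube2q2 and Ube2d2a lie at 0.35 to 0.58 and Ube2m lies above 0.

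The direct comparison sets the anti-miRs against each other. The control libraries enter it only through the filter on low counts, the scaling and the shared estimate of spread. Its main fit does not pair libraries by replicate number. Of the 33 tested members 0 differed between the anti-miRs (edgeR, smallest adjusted p = 0.833), as did 0.0% of all 16884 tested genes (992 at an unadjusted p under 0.05); 1 member had an unadjusted p under 0.05, and DESeq2 also called 0 members, with 2 at an unadjusted p under 0.05. That member was Ube2e2, at 70.8 ± 1.77 CPM under anti-miR-409-5p and 75.5 ± 1.95 CPM under anti-miR-501-3p (SD, n = 4 each), a log2 difference of -0.094 ± 0.038 (unadjusted p = 0.0222). Next came Ube2g1 at 89.3 ± 6.47 and 95.4 ± 2.94 CPM, a log2 difference of -0.096 ± 0.046 (unadjusted p = 0.0521). With the replicate number as a block, Ube2c differed, at a log2 difference of 0.36 (adjusted p = 0.0392), where 1.49% of all tested genes differed; with the block and the GC and length correction 0 members did (edgeR, smallest adjusted p = 0.0601, 4 at an unadjusted p under 0.05). Ube2c shares 17.8% of its 50-base windows with other genes such as Tnnc2, whose exons it overlaps.

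The members with a seed match can be set beside the sites printed above. Ube2j2, with the match for miR-409-5p, was at a log2 fold change of -0.097 under anti-miR-409-5p (adjusted p = 0.304) and -0.065 under anti-miR-501-3p. Of the 6 members with a match for miR-501-3p, Ube2d3, Ube2e2, Ube2e3, Ube2l3 and Ube2v2 were called higher under anti-miR-501-3p as counted, and of these only Ube2e2 was not also called under anti-miR-409-5p. In that comparison 16 of all 33 tested members and 17.6% of all tested genes were called higher. Ube2h, with its longer match and counts that may be shared with other genes, was at -0.027 (adjusted p = 0.678). In the direct comparison all 6 had log2 differences, anti-miR-409-5p minus anti-miR-501-3p, between -0.14 and 0.009, with adjusted p = 0.833 to 0.984. After the GC and length correction Ube2l3 was not called under anti-miR-501-3p (0.043, edgeR adjusted p = 0.63). Ube2d3, Ube2e2, Ube2e3 and Ube2v2 kept that call at 0.55, 0.26, 0.17 and 0.26. Whether the sites act on these levels was not tested.

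The other steps of the pathway moved both ways against control as counted, where 15.6% of all tested genes were higher and 12.2% lower for anti-miR-409-5p, and 17.6% and 15.4% for anti-miR-501-3p. With so few genes in the first 3 lists, nothing is read from how their counts stand to these shares. Of 10 E1 genes, 3 were higher under each anti-miR, with 1 lower under anti-miR-409-5p and 2 under anti-miR-501-3p. The risers were Uba6 (log2 fold change 0.45 and 0.50), which charges Ube2z with FAT10, and Uba3 (0.21 and 0.27) and Nae1 (0.24 and 0.32), the subunits of the NEDD8 E1. Mocs3 was lower in both (-0.31 and -0.36). Of 8 tested E2 and E2-like genes that do not bear a Ube2 name, Cdc34, which extends chains on SCF substrates, was lower in both (-0.28 and -0.28) and Tsg101 was called higher under anti-miR-409-5p (0.16) and not called under anti-miR-501-3p (0.10). Of 12 genes of ubiquitin and its relatives, 2 were higher in each comparison, with 4 lower under anti-miR-409-5p and 3 under anti-miR-501-3p. Nedd8 (-0.17 and -0.16) was lower in both, and Ufm1 (0.28 and 0.34) and Atg12 (0.17 and 0.19) higher. After the GC and length correction Uba3 was called lower in both comparisons, at -0.31 and -0.34, against the direction as counted. None of the other genes named in these 3 lists kept a call by edgeR. Uba6 (-0.12 and -0.14, adjusted p = 0.146 and 0.0636), Nae1 (-0.054 and -0.038), Cdc34 (0.015 and 0.048) and Nedd8 (0.02 and 0.033) had the other sign, and Mocs3, Tsg101, Ufm1 and Atg12 lay between -0.095 and 0.022. Among the E1 genes and the E2 and E2-like genes, the correction left Uba3 called under anti-miR-409-5p and Uba3 and Aktip (-0.16, adjusted p = 0.0164) under anti-miR-501-3p, all lower; Aktip is named after its values were seen.

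Of 71 E3 ligases and core subunits, 27 rose and 12 fell with anti-miR-409-5p, and 26 rose and 16 fell with anti-miR-501-3p, beside 15.6% and 17.6% of all genes called higher. Cul3 (0.49 and 0.51) and Cul4b (0.38 and 0.39), scaffolds of cullin ligases, Arih1 (0.34 and 0.35), which works with Ube2l3, and Rnf139 (0.30 and 0.32) had the smallest p. After the correction 3 rose and 3 fell with anti-miR-409-5p, where 3.14% of all tested genes were higher and 2.13% lower. With anti-miR-501-3p 5 rose and 4 fell, where 4.58% were higher and 3.33% lower, and nothing is read from these counts. Of the 4 named, Arih1 kept its call in both (0.12 and 0.12, adjusted p = 0.0293 and 0.019), while Cul3 (0.02 and -0.019), Cul4b (0.083 and 0.048) and Rnf139 (0.011 and -0.009) kept neither. Of 34 deubiquitinases and related proteases, 11 rose and 2 fell with anti-miR-409-5p, and 11 rose and 6 fell with anti-miR-501-3p, led by Usp14 (0.34 and 0.37), Brcc3 (0.46 and 0.61), Usp46 (0.35 and 0.33) and Atxn3 (0.41 and 0.44). After the correction 1 rose and 3 fell with anti-miR-409-5p and 9 fell with anti-miR-501-3p, beside the same corrected shares of all tested genes. Brcc3 was called lower in both (-0.24 and -0.20). Usp46 kept its call under anti-miR-409-5p (0.11, adjusted p = 0.0468) but not under anti-miR-501-3p (0.078, adjusted p = 0.186), and Usp14 (-0.081 and -0.11) and Atxn3 (0.064 and 0.055) kept neither.

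In the authors' deposited tables of each comparison with control, which list 33 members, 15 stood higher and 1 lower for anti-miR-409-5p, and 15 higher and 2 lower for anti-miR-501-3p, at an adjusted p under 0.05. All of these calls are among those made here from the counts. Ube2m under anti-miR-409-5p and Ube2e1, Ube2g2 and Ube2s under anti-miR-501-3p were called here and not in the authors' deposited tables.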

How the data were processed

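Per the labels' protocols, polyadenylated RNA was made into libraries with the TruSeq RNA kit v2, which does not mark strand, and read as 50 bp single-end reads on a HiSeq2000. The submitters' processing notes name build mm10 and, as tools, Subread 1.5.1 with featureCounts, STAR 2.5.2b and FastQC 0.11.5; the annotation release, the strand setting and the handling of multimapping reads are not given in the sources used here. The authors deposited raw counts per Ensembl gene for each of 10 libraries (22254788 to 32096808 counts), so depth limited only the low members. For both comparisons with control the authors deposited a table of log2 fold changes, test scores (the statistic column), p-values and adjusted p-values, per the file headers, with no tool stated. Their per-library signal columns, normalized by the authors, equal the raw counts divided by a factor per library (relative spread at most 9.84e-10), and these tables served only for a comparison of calls.

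The members, the role groups and the pathway and marker lists were chosen with earlier results of these data known. Genes were matched to GENCODE annotation of mm10 by Ensembl identifier (48349 of 48709), from which coordinates, exon lengths, transcript GC content and 3′ UTRs were taken. Counts were tested with edgeR 4.0.16 in R 4.3.3 (quasi-likelihood with robust estimation, filterByExpr, TMM, two-sided), with the 3 groups as the only terms over all 10 libraries. Genes were called at 0.05 after Benjamini-Hochberg adjustment of p over 16884 genes. The scripts were tested on simulated data. CPM uses TMM library sizes. TPM divides counts by the union of annotated exons and uses no TMM adjustment. For the GC and length correction, each library's log2 deviations (prior count 2) were fitted on splines with 5 degrees of freedom of GC content and log length, and the fit entered as an offset; 99.73% of tested genes had these values. It can take away real differences too. Among the members a correlation with GC content remained after it, -0.42 under anti-miR-409-5p and -0.50 under anti-miR-501-3p. Whether members that pass after the correction still carry part of the trend was not tested. Other alternatives were DESeq2 1.42.0 as scaling and as test, upper-quartile and total-count scaling, no filter, the compared groups alone, a replicate block, 1 surrogate variable (sva 3.50.0) and leaving out each library. Same-numbered libraries of the anti-miRs deviated together (r = 0.375, 0.164, 0.121 and 0.306 for numbers 1 to 4). Pairing by number entered only the fits with a replicate block, and the main fit left it out. Library values were given for the 14 called members of largest change, the 4 of highest TPM in control, the member of smallest p in each role group, risers with a seed match and the 2 of smallest p between the anti-miRs. Of the genes examined, 3 are not reported here by name.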

Additional observations from a re-analysis of the deposited data

Results flagged for a closer look

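Among 66 sets of 4 libraries, 33 members in each anti-miR group, 1 held a library far from the others, where chance flags about 1 in 20. In the anti-miR-501-3p group, replicate 1 had a log2 CPM of 5.14 for Ube2v2, while the other 3 libraries lay between 5.47 and 5.49. The gap to the nearest library was 0.943 of the group's whole range, above Dixon's 95% critical value for 4 libraries.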

How the results depend on the processing

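The 3 comparisons were recomputed under 20 alternatives. Against control, of 1317 values of single members 1173 kept their direction and their side of the threshold, 72 lost the call with the same direction, 19 gained it, 7 reversed and 46 were uncalled in both with another sign. Of the 740 of these values whose gene was called as counted, 663 stayed called in the same direction. Between the anti-miRs, where no member was called, 598 of 660 kept the sign uncalled, 61 had the other sign and 1 gained a call. With the GC and length correction 11 members were called under anti-miR-409-5p and 12 under anti-miR-501-3p, against 17 and 20 as counted; the replicate block together with that correction also gave 11 and 12, but under anti-miR-409-5p Ube2d1 then missed the threshold (0.117, adjusted p = 0.0855) and Ube2c passed it (0.41, adjusted p = 0.0323). With 1 surrogate variable 10 were called under anti-miR-409-5p (18 under anti-miR-501-3p), where 1017 and 3637 of all 16884 tested genes were called. Leaving out each anti-miR library in turn gave 16 to 18 members under anti-miR-409-5p, where 3411 to 5111 of all tested genes were called. Under anti-miR-501-3p it gave 18 to 20 members, where 4512 to 6075 of all tested genes were called, and between the anti-miRs 0 members. Of these, the members called lower numbered 1 to 3 and 2 to 4 against control, beside 2 and 4 in all libraries. The fewest members were called without control replicate 1, which leaves 1 control library. Over all tested genes too, calls against control were fewest without control replicate 1 and next fewest without control replicate 2. The replicate block alone changed no call against control (17 and 20), where only 2 numbers are shared. Their correlations were 0.293 and 0.0425 for anti-miR-409-5p and 0.359 and 0.211 for anti-miR-501-3p. Between the anti-miRs the block gave 1 member, Ube2c. Reversals were those of Ube2m with the GC and length correction (0.148 and 0.153) and with the block added (0.122 and 0.127), of Ube2ql1 under anti-miR-501-3p (0.135, and 0.119 with the block) and of Ube2g2 under anti-miR-501-3p with both (0.01); beyond the correction itself, the cause was not tested. Control has 2 libraries, so every comparison with control rests on few samples, and members under 10 CPM (Ube2c, Ube2s, Ube2l6, Ube2t, Ube2cbp and Ube2v1) have SEs of 0.0958 or more in all comparisons.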

Other observations

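Among the 15 members higher under both anti-miRs, replicate 1 was the lowest library of its group for 13 under anti-miR-409-5p and for 13 under anti-miR-501-3p. Over the 2434 genes higher under both, replicate 1 was lowest for 72.9% and 71.7%. Replicate 1 of each anti-miR also had the GC slope nearest to control, 0.038 and 0.0078 log2 units for each 10 points of GC, while the other anti-miR libraries lay between -0.0083 and -0.13.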
